A study of Mus musculus with 2 samples.

Results

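The 2 cone opsins and 5 non-visual opsins of the mouse were followed in retinal RNA from a study of Samd7, a photoreceptor gene whose protein carries a sterile alpha motif. The members were the genes Opn1sw, Opn1mw, Opn3, Opn4, Opn5, Rgr and Rrh, and their probes were the non-control probes whose transcript accession RefSeq assigns to one of them. These were 7 of 21367 named genes on the array, covered by 10 of 28330 named probes. All samples were retinas dissected at postnatal day 12, an age at which photoreceptors are still maturing. One array carried total RNA labelled Samd7 KO and 1 array carried total RNA labelled wild type, on a 1-colour Agilent design read with the dye Cy3. The labels name neither the strain, the sex, the allele of Samd7 nor the number of animals behind each RNA. Without replicates no p-value and no spread between animals can be given, and each difference compares these 2 arrays.

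Opsins are G protein-coupled receptors that hold a retinoid as their light-absorbing group. Cone opsins start the phototransduction cascade of cones: Opn1sw encodes the short-wavelength opsin and Opn1mw the medium-wavelength opsin, and many mouse cones make both in a dorsal to ventral gradient. The nuclear receptors encoded by Thrb and Rxrg are known to hold back the short-wavelength opsin, and Thrb is needed for the medium-wavelength opsin. Among the non-visual opsins, Opn4 encodes melanopsin, the photopigment of intrinsically photosensitive ganglion cells, Opn3 encodes encephalopsin and Opn5 encodes neuropsin. Rgr and Rrh encode the retinal G protein-coupled receptor and peropsin, which are known from the pigment epithelium and, for Rgr, Müller glia.

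The upstream sequences of the cone opsins are shown because these genes share a cell type and changed unequally between the arrays. Each is the 250 bases before the annotated start, from RefSeq promoters of build GRCm38.p6, printed 5′ to 3′ on the strand of the gene. Capitals mark AGGTCA or its reverse complement TGACCT, the half-site that many nuclear receptors bind. The first lies at chr6:29380514-29380763 on the minus strand and the second at chrX:74127216-74127465 on the plus strand.
Opn1sw: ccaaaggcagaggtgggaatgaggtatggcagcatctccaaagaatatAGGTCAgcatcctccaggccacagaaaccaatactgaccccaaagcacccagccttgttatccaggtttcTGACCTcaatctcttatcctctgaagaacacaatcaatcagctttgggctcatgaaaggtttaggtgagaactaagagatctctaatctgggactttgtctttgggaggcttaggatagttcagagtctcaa
Opn1mw: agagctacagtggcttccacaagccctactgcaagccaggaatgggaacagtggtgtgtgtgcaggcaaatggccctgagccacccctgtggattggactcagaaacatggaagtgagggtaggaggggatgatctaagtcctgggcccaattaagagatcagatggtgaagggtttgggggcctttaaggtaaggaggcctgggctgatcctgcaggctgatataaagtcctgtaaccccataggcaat
The Opn1sw window held the half-site in 2 places, AGGTCA beginning 202 bases before the start and TGACCT beginning 132 bases before it, and the Opn1mw window held none. Of 32851 windows of the same length in the table, 14.0% held the half-site on either strand. Promoters were found for 6 of the 7 opsins, all but Opn5, and of these 6 only Opn1sw held AGGTCA on either strand. Other motifs searched on both strands were TAATCC, bound by the homeodomain factors Crx and Otx2, TGCTGA, part of the site of Maf-family factors such as Nrl, and CANNTG, the E-box of basic helix-loop-helix factors. The only overlap among matches was before Opn1sw, where the Maf-type match, on the other strand, shared 3 bases with the farther half-site. TAATCC occurred 1 time among the 6, before Rgr (6.25% of all windows hold it). TGCTGA occurred 1 time each before Opn1sw, Opn4 and Rrh (16.1% of all windows). CANNTG occurred 2 times before Opn1mw and 1 time each before Opn3, Opn4 and Rgr (66.2% of all windows). These matches describe the letters of the windows, and binding was not measured.

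The targeted gene read higher under the knockout label, which goes against that label if the probe covers what was deleted. The only named Samd7 probe read a processed signal of 48967 on the knockout-labelled array and 14769 on the wild-type-labelled array, a difference of 1.78 on the log2 scale or 3.44-fold. Neither the deleted part of Samd7 nor the place of the probe is given in the sources used here. The arrays are therefore named by their labels, and every direction rests on those labels. Of 59305 non-control spots, 60.9% lay well above background on the knockout-labelled array and 60.3% on the wild-type-labelled array, and both arrays lay on 1 slide. For the labelled tissue, all 15 rod, 10 Müller glia and 11 ganglion cell markers listed were above background on both arrays. So were 15256 of the 21367 named genes, all 9 pigment epithelium markers and 10 of the 13 lens markers. This check therefore cannot tell retina from other eye tissue.

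Of the 7 opsins, Opn1sw was 4.27-fold higher under the knockout label, and none of the other 5 opsins above background was 2-fold apart. Rgr was the lowest of these, and both of its probes read lower on the knockout-labelled array. Opn1mw, Opn3, Opn4 and Rrh differed by less than the scanner error in the probe that stood for the gene, and Opn5 was above background on neither array. In all, 1 of the 6 opsins above background was at least 2-fold higher and 0 were at least 2-fold lower. Of 15930 genes above background on at least 1 array, 1.58% were at least 2-fold higher and 1.37% at least 2-fold lower. The median difference over the 6 measured opsins was -0.03 on the log2 scale, and over the 15256 genes above background on both arrays it was -0.02.

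Levels are log2 processed signals relative to the array's 75th percentile, and a difference is the knockout-labelled minus the wild-type-labelled array. The error after ± comes from the scanner software's error model, which covers the reading of a spot but neither animals nor labelling. Of the genes above background on both arrays, 80.9% differed by less than this error. A narrower gauge is the SD of the difference between repeated spots of a probe, which was 0.05 for levels of 0 or more, 0.09 from -2 to 0 and 0.19 from -4 to -2. Each opsin probe had 1 spot per array, so these gauges stand in for its own repeats. Levels of different probes depend on their binding and are not compared with each other.

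**Figure D1:**
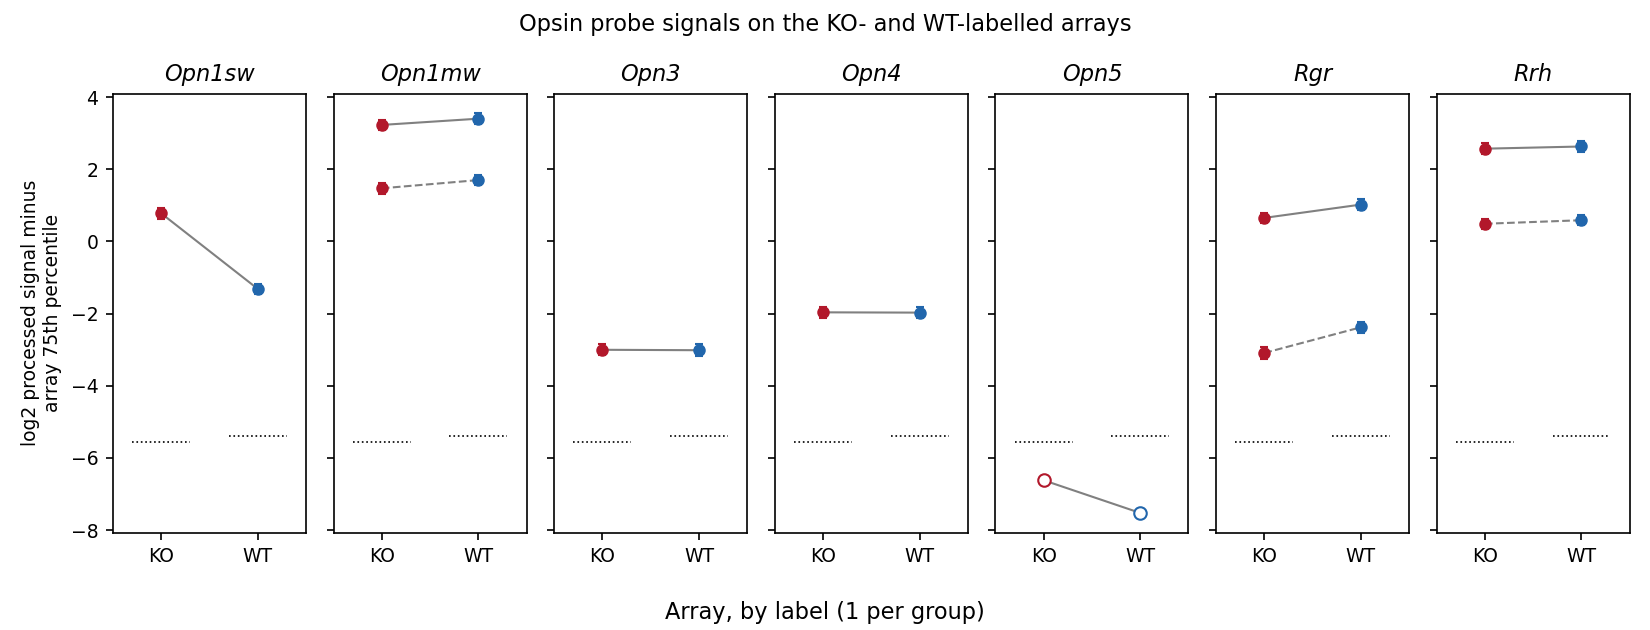
Log2 processed signal relative to the array's 75th percentile (vertical axis) for each opsin on the KO-labelled (left) and WT-labelled (right) array. Lines join the 2 readings of a probe (solid for the brightest probe, dashed for the other), bars are the scanner error, dotted ticks mark the lowest signal called well above background and open circles lie below it. Opn1sw has the steepest line of the probes above background, at 0.78 on the KO-labelled array and -1.31 on the WT-labelled array.

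The short-wavelength cone opsin stood out among the members. The Opn1sw probe A_55_P1965886 read a processed signal of 951 ± 95.1 on the knockout-labelled array and 231 ± 23.4 on the wild-type-labelled array. The median pixel of the spot was 949 over a local background of 43 on the knockout-labelled array, and 269 over 42 on the wild-type-labelled array. Both readings were thus well clear of the background, and the local backgrounds were alike. The levels of 0.78 on the knockout-labelled array and -1.31 on the wild-type-labelled array gave a difference of 2.09 ± 0.21, against a repeat-spot SD of 0.09. This was rank 45 from the highest among 15256 genes above background on both arrays. Normexp background correction on median signals gave 1.78, which is 3.44-fold. Only 1 named probe covers Opn1sw, so no second probe bears on it.

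The medium-wavelength cone opsin was nearly level. The brighter Opn1mw probe, A_55_P1965876, read 5195 ± 519 on the knockout-labelled array and 6077 ± 608 on the wild-type-labelled array. Its difference was -0.17 ± 0.20, within the scanner error and over 3 times the repeat-spot SD of 0.05. The other probe, A_51_P486748, read 1537 ± 154 on the knockout-labelled array and 1868 ± 187 on the wild-type-labelled array, a difference of -0.23 ± 0.20 that lay just outside its error. Both Opn1mw probes gave a value below 0, and they differed from each other by 0.05. The difference of Opn1sw exceeded that of Opn1mw by 2.27 ± 0.29 against the brighter probe and by 2.32 ± 0.29 against the other, the first of which is 4.81-fold. This says that the transcripts changed unequally between the arrays. In whole retina, a change in the number of cells of a type and a change in RNA per cell cannot be told apart.

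**Figure D2:**
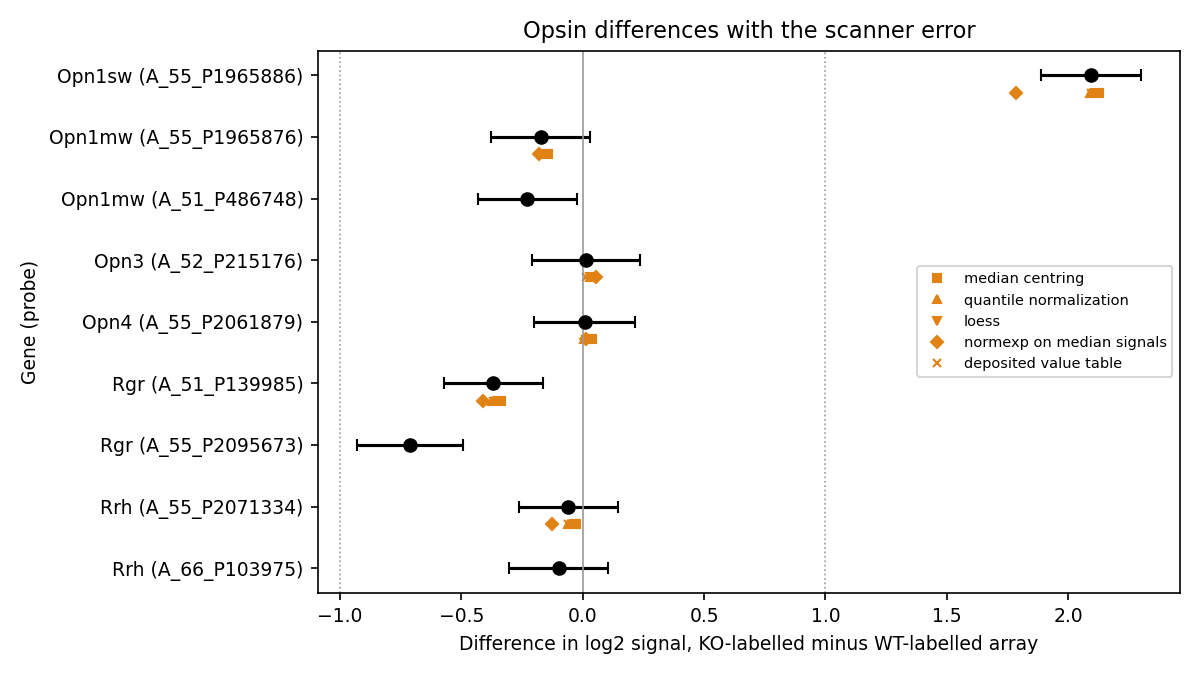
Difference in log2 signal, KO-labelled minus WT-labelled array (horizontal axis), for the 9 opsin probes above background on both arrays; black points carry the scanner error as bars, orange marks give the alternatives for the brightest probe of a gene, and dotted lines mark 2-fold. Opn1sw lies at 2.09 with its normexp value at 1.78, and the other probes lie between -0.71 and 0.01.

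Encephalopsin and melanopsin were level. Opn3 (probe A_52_P215176) read 69.2 ± 7.48 on the knockout-labelled array and 71.1 ± 7.84 on the wild-type-labelled array, and its difference after scaling was 0.01 ± 0.22. The Opn4 probe A_55_P2061879, designed on 1 of the 2 melanopsin transcripts in the RefSeq table, read 142 ± 14.4 on the knockout-labelled array and 146 ± 15.0 on the wild-type-labelled array. Its difference after scaling was 0.01 ± 0.21, from -0.20 to 0.22 within 1 scanner error. Opn4 is made by few retinal cells, and its reading came from a dim but clearly detected spot, with a median pixel of 196 over a background of 40 on the knockout-labelled array and 202 over 45 on the wild-type-labelled array. Neither gene differed by more than the repeat-spot SD.

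Neuropsin was not well above background. The Opn5 probe A_51_P348792 read 5.64 ± 2.76 on the knockout-labelled array and 3.12 ± 3.14 on the wild-type-labelled array, with a median pixel of 53 over a local background of 45 on the knockout-labelled array and 48 over 46 on the wild-type-labelled array. No fold is given for it, since the scanner called neither reading well above background.

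Of the opsins of the pigment epithelium, Rgr was lower on the knockout-labelled array by more than the scanner error and Rrh differed by less than it. The brighter Rgr probe, A_51_P139985, read 871 ± 87.2 on the knockout-labelled array and 1167 ± 117 on the wild-type-labelled array, a difference of -0.37 ± 0.20 or 1.29-fold lower. The dimmer probe A_55_P2095673 read 65.1 ± 7.07 on the knockout-labelled array and 110.5 ± 11.5 on the wild-type-labelled array, a difference of -0.71 ± 0.22. Both lay below 0 by more than the scanner error, and their gap was 0.34 ± 0.30. A gap at least that wide occurred in 10.9% of 4131 genes with 2 or more probes above background on both arrays. Under normexp the Rgr probes gave -0.41 and -0.42. The Rgr difference of the brighter probe ranked 703 from the lowest among 15256 genes, so 702 of them had a lower one.

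Rrh, the peropsin gene, read 3292 ± 329 on the knockout-labelled array and 3561 ± 356 on the wild-type-labelled array with probe A_55_P2071334. Its second probe, A_66_P103975, read 778 ± 77.9 on the knockout-labelled array and 864 ± 86.5 on the wild-type-labelled array. The differences of -0.06 ± 0.20 and -0.10 ± 0.20 were within the scanner error and differed from each other by 0.04.

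The pigment epithelium is a sheet that can stay attached to a dissected retina, and its markers were read beside Rgr. Of 9 such genes, all above background on both arrays, 6 were below 0 (Slc45a2 among them was at 0.01 under normexp), with a median difference of -0.28 and none 2-fold apart, and 4 differed by less than the scanner error. Of all genes above background on both arrays, 58.1% lay below 0, so the count below 0 by itself is near that share. Within the scanner error were 80.9% of all those genes, a larger share than the 4 of 9 here. The summed processed signal of the 9 markers was 11118 on the knockout-labelled array and 14058 on the wild-type-labelled array. The melanosome genes Pmel (-0.81) and Tyrp1 (-0.68) were the lowest, and Ermn (0.17, with -0.09 in its other probe) and Best1 (0.15, but -0.05 under normexp) the highest. Of the Müller glia markers, 9 of 10 lay above 0, with a median of 0.09, from Rlbp1 (-0.0001, with a sign that turned under 3 scalings) and Vim (0.04) to Hes1 (0.38) and Apoe (0.44). Most of these values were small: 7 of the 10 differed by less than the scanner error, where 80.9% of all genes did. The part of attached pigment epithelium in the Rgr reading was not tested.

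**Figure D3:**
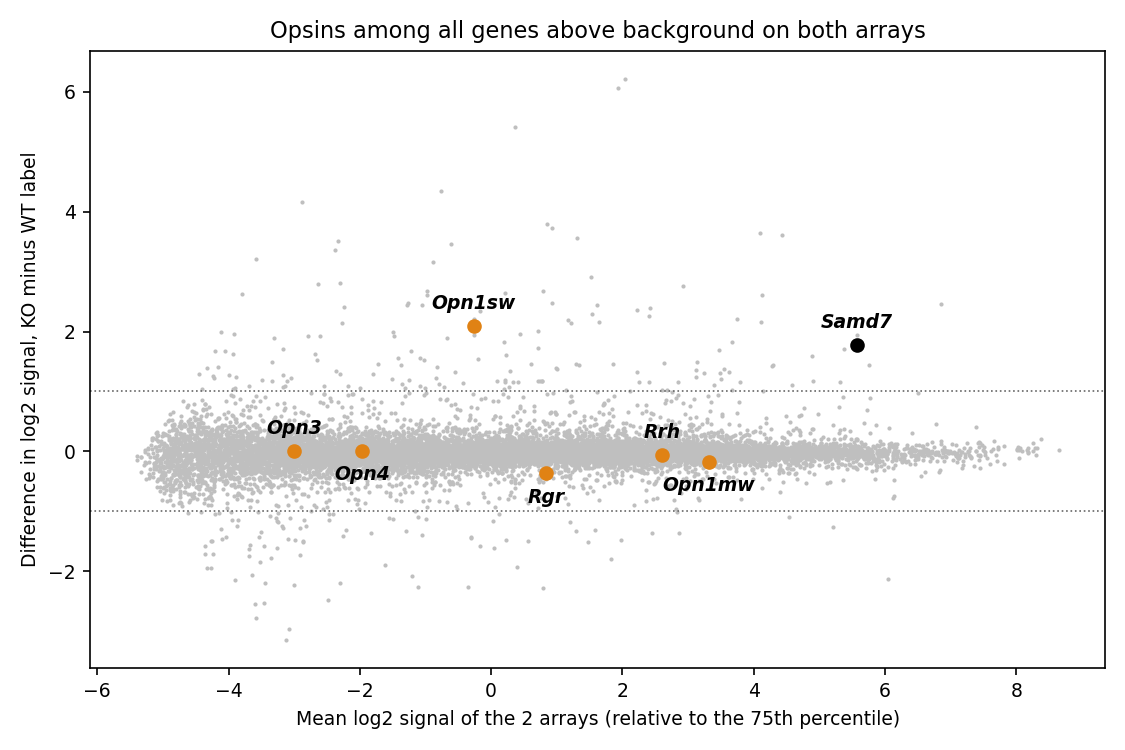
Difference in log2 signal, KO-labelled minus WT-labelled array (vertical axis), against the mean log2 signal of both arrays relative to the 75th percentile (horizontal axis), for 15256 genes above background on both arrays (grey), with 6 opsins in orange and Samd7 in black; dotted lines mark 2-fold. Opn1sw lies at 2.09 above the cloud, Rgr at -0.37 near its lower edge and the other 4 opsins inside it.

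Genes around the opsins were read from lists by role. Cone phototransduction partners, 11 genes for the transducin, phosphodiesterase, channel, arrestin, kinase, exchanger and calcium sensor steps after a cone opsin, were all above background. Past the 2-fold threshold were 3 genes on the higher side and 0 on the lower, where 1.58% and 1.37% of all genes were so, and the median was 0.32. The highest were the channel subunit Cnga3 (2.91), the transducin gamma subunit Gngt2 (2.45) and the channel subunit Cngb3 (2.14). The lowest were the opsin kinase Grk1 (-0.31), which rods use as well, and the exchanger Slc24a2 (-0.06, with -0.18 and 0.03 in its other probes). Opn1sw, at 2.09, lay just below these 3 highest. Not all partners moved: 4 of the 11 differed by less than the scanner error, where 80.9% of all genes did. These were Slc24a2, Gnat2 (0.04), Pde6c (-0.04) and Pde6h (-0.01), with -0.19 and -0.12 in the other probes of Pde6c and Pde6h. Of the 4 partners below 0, Pde6h changed sign under median centring and loess.

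Regulators of opsin choice and cone fate were no more level than genes at large. Of 18 such genes, all above background on both arrays, 13 differed by less than the scanner error and the median was 0.003. Over all genes above background on both arrays, 80.9% differed by less than that error. Rxrg, a partner of thyroid hormone receptors, was the only one of the 18 that was 2-fold apart. It was at 2.77 on its brighter probe and 1.23 on the other. Thrb, the thyroid hormone receptor that the medium-wavelength opsin requires, was at -0.21, with -0.24 in its other probe. The first value was about the size of its scanner error of 0.20. Pias3, a coregulator known to act on cone opsin genes, was at 0.29 and the orphan nuclear receptor Rora at -0.32 (-0.07 in its other probe).

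Of the genes of melanopsin cells, all 13 listed were above background on both arrays, with a median of -0.02 and none 2-fold apart. Of the 13, 10 lay within the scanner error, where 80.9% of all genes did. The G protein alpha subunit Gna14 (0.48) and the channel Trpc7 (0.23, with -0.64 in its other probe) were the highest, both dim, and Gna14 was at 0.14 under normexp. The neuropeptide gene Adcyap1 (-0.25), made by melanopsin cells, and the homeobox gene Irx1 (-0.25) were the lowest. The 11 ganglion cell markers had a median of 0.04, from Pou4f3 (-0.12) and Nefm (-0.09) to Isl2 (0.08) and Nefh (0.12).

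Retinoid cycle genes, which make and carry the chromophore that opsins hold, were lower in 10 of the 15 measured on both arrays, near the 58.1% of all genes, with a median of -0.10. Within the scanner error were 9 of the 15, a smaller share than the 80.9% of all genes. Rlbp1, counted among the 10, turned sign as above. Ttr, a retinol carrier partner (-0.53), and Rpe65, the isomerase of the pigment epithelium (-0.45), were the lowest. Rdh10 (0.24) and Rdh8 (0.12), retinol dehydrogenases, were the highest. Awat2 was above background on the wild-type-labelled array alone and at least 2.05-fold lower on the knockout-labelled array by a bound. The bound shrank to -0.20 on the log2 scale under normexp. Of the 17 listed, 16 were above background on at least 1 array, with 1 thus at least 2-fold lower and 0 at least 2-fold higher. Over all genes those shares were 1.37% and 1.58%.

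Markers of rods and of the lens differed mostly in opposite directions. Of 15 rod markers, 13 lay below 0, where 58.1% of all genes did, with a median of -0.28. Of the 15, 5 differed by less than the scanner error, where 80.9% of all genes did. The summed signal of the 15 was 746280 on the knockout-labelled array and 911302 on the wild-type-labelled array. Gnat1, the rod transducin, was at -2.13 and Esrrb, a nuclear receptor of rods, at -1.09, while Rom1 (0.08) and the targeted Samd7 (1.78) lay above 0. Of 12 lens markers above background on at least 1 array, 9 were at least 2-fold higher and 0 at least 2-fold lower. Over all genes those shares were 1.58% and 1.37%. Over the 10 measured on both arrays the median was 1.85 and the summed signal 11239 on the knockout-labelled array and 2858 on the wild-type-labelled array. Crybb2 (2.80) and Crygs (2.63), crystallins, were the highest, Bfsp1 (0.64) and Bfsp2 (-0.15), filament genes, the lowest. The other 7 past 2-fold lay between 1.21 (Cryba4) and 2.53 (Mip, a bound), with Crybb3 at 1.22, Crybb1 at 1.55, Cryba2 at 2.15, Cryaa at 2.25 and Cryba1 at 2.35. Under normexp, 6 of the 10 measured on both arrays were at least 2-fold higher, against 8 under median centring, quantile normalization and loess. The count of 9 includes Mip, a bound. The part of lens tissue in the Opn1sw reading was not tested.

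**Figure D4:**
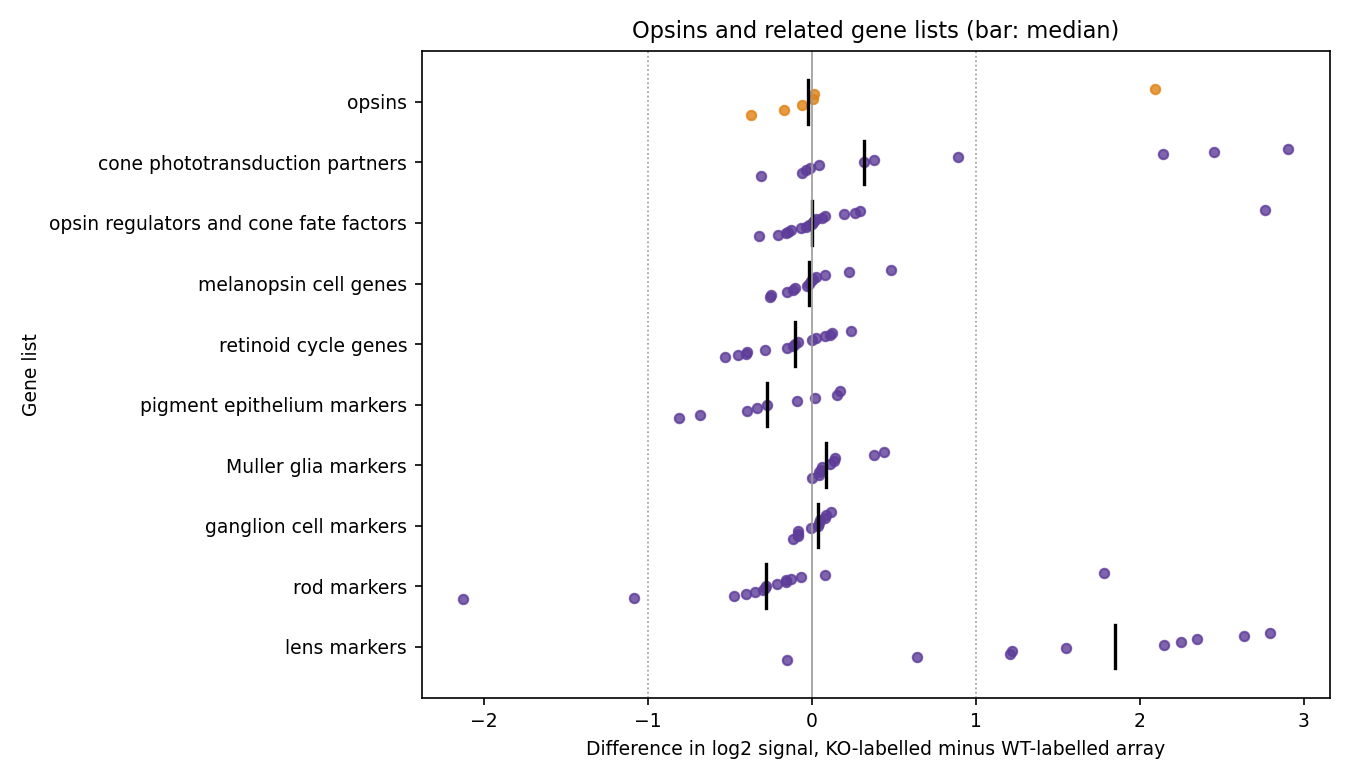
Difference in log2 signal, KO-labelled minus WT-labelled array (horizontal axis), for genes above background on both arrays in the opsins (orange) and 9 related gene lists (purple), 1 point per gene; black bars are list medians and dotted lines mark 2-fold. Opn1sw lies at 2.09 and the other measured opsins between -0.37 and 0.01.

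By position, the gene next to Opn1sw differed even more than the opsin. The nearest genes with a named probe on each side were taken from the order of the RefSeq table. On chromosome 6, Ccdc136, a coiled-coil gene on the opposite strand from Opn1sw, had levels of 6.23 on the knockout-labelled array and 2.63 on the wild-type-labelled array, a difference of 3.61 ± 0.20 or 12.2-fold higher. Calu, the calcium-binding calumenin on the other side, was at 0.31 ± 0.20. On the X chromosome, Tex28, beside Opn1mw, was at -0.33, with -0.36 in its other probe.

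Around the non-visual opsins, 8 of the 10 neighbours differed by less than 0.2. Small differences were common, since 80.9% of all genes above background on both arrays differed by less than the scanner error. For Rgr on chromosome 14 the neighbours were Ccser2 (-0.002, above 0 under 3 scalings) and Lrit1 (-0.14). Those of Rrh on chromosome 3 were Lrit3 (-0.12) and Gar1 (-0.07), and those of Opn5 on chromosome 17 were Ptchd4 (-0.16) and Adgrf4 (0.05). Opn3 on chromosome 1 lay between Kmo (-0.48, but 0.01 under normexp) and Chml (-0.12), and Opn4 on chromosome 14 between Wapl (-0.12) and Ldb3. Ldb3, a muscle Z-disc gene, read -1.46 on its brighter probe and 0.23 on the other, so its probes disagree in sign.

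**Figure D5:**
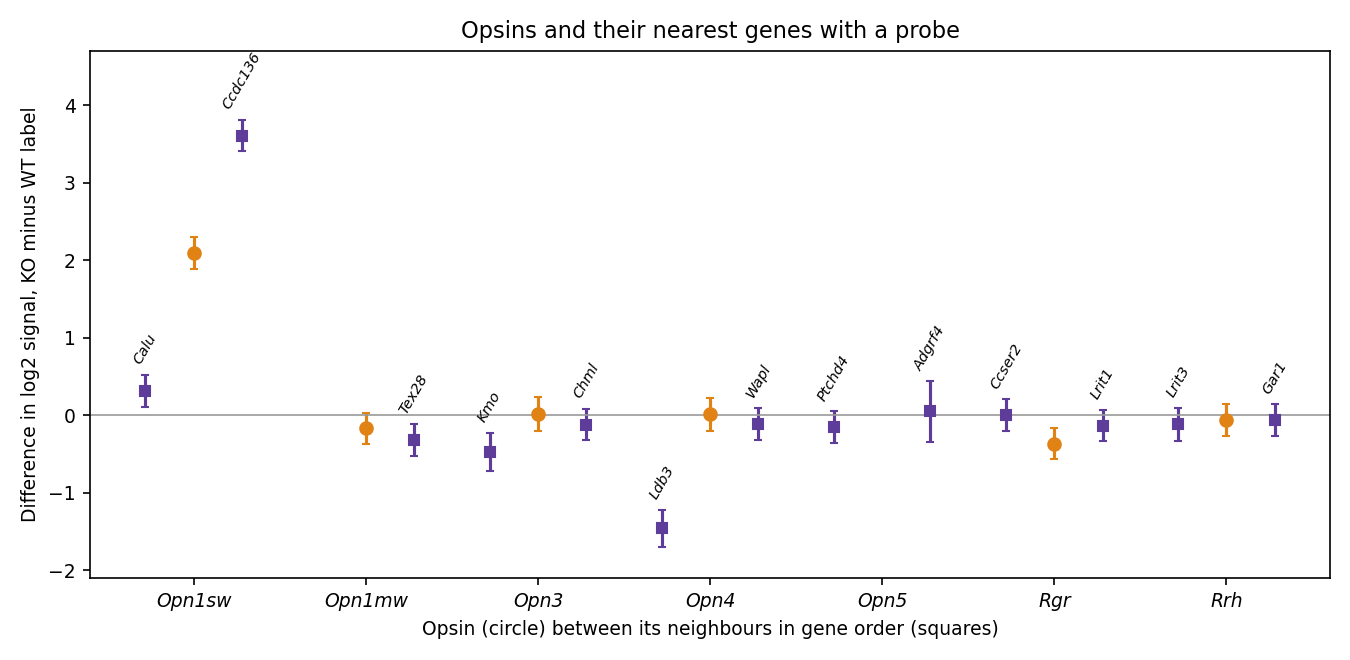
Difference in log2 signal, KO-labelled minus WT-labelled array (vertical axis), for each opsin (orange circle) and the nearest gene with a probe on each side in gene order (purple squares); bars are the scanner error, and Opn5, above background on neither array, has no circle, and 1 neighbour of Opn1mw is not shown. Ccdc136 at 3.61 beside Opn1sw at 2.09 is the adjacent pair that both lie above 2.

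Few genes matched the difference of Opn1sw. Among 7628 genes above background on both arrays with a mean signal at or above their median, 4 lay within 0.1 of the Opn1sw difference on the log2 scale. The 3 nearest were the cone channel subunit Cngb3 (2.14), the clathrin light chain gene Cltb (2.16) and the lens crystallin gene Cryga (2.16), whose near-identical relatives can share signal with it. The small difference of Opn1mw was common: 1891 of the same genes (24.8%) lay within 0.1 of it, and the nearest were Prag1, Pcbp4 and Gnl2, each at -0.17. Likeness here means the closeness of 1 difference between 2 arrays.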

How the data were processed

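Scanner intensity values were deposited by the authors from the Agilent Feature Extraction software (11.5.1.1, protocol GE1_1105_Oct12, per the file headers) on an array designed on mm9. RNA was amplified and labelled with Cy3 from a low-input kit, per the labels' protocols. The deposited value table holds the same intensity values times a constant for each array (median 106.03 on the knockout-labelled array and 107.75 on the wild-type-labelled array). How the constant was set is unknown, and the table served as an alternative.

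Non-control spots were scaled by subtracting, on the log2 scale, the 75th percentile of each array's processed signal. Spots with outlier flags were left out (163 on the knockout-labelled and 119 on the wild-type-labelled array), and none was saturated. Spots of a probe were averaged, and the brightest probe stood for a gene. Probes were named through RefSeq transcripts of assembly GRCm38.p6, which gave 28330 of 55677 probes 1 symbol. The other 27347 had no name here, and a transcript listed under several symbols was left unnamed. With 1 array per group no test was run. Where a probe was dim on 1 array, its difference is a bound against that array's lowest signal well above background. The threshold was 2-fold. The repeat-spot SD came from 320 probes. Normexp used limma 3.58.1 with an offset of 50, and loess used statsmodels 0.14.6. The counting step was tested on simulated data.

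The members and gene lists were chosen with earlier results of these data known. Named genes were all members, Samd7, list members at least 2-fold apart with the 2 highest and 2 lowest of each list, the nearest genes on each side of an opsin (1 is not reported here), and the 3 genes closest in difference to each cone opsin. The number of arrays limits the precision.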

Additional observations from a re-analysis of the deposited data

How the results depend on the processing

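Quantile normalization, loess, normexp and, for the 3 opsins with 2 probes, the mean over probes gave 21 recomputed differences of the 6 measured opsins, of which 18 moved by less than the repeat-spot SD and 0 changed sign. Median centring moves all differences alike, by 0.03, and the deposited table holds the same intensities times a constant, so neither bears on stability. Opn1sw ranged from 1.78 to 2.13 and Opn1mw from -0.20 to -0.14. Normexp moved Opn1sw to 1.78 and Rrh to -0.13, and the mean over probes moved Rgr to -0.54; the dimmer Rgr probe enters that mean by construction. Normexp also used median signals, so 2 choices changed at once, and the cause of its shifts was not tested. Opn5 gives no value under any setting, since it was above background on neither array. Counts of all genes depended on dim spots. Against 251 higher and 218 lower, normexp gave 120 and 45, genes above background on both arrays 160 and 94, no filter 512 and 601, a threshold of 1.5-fold 471 and 510, and 4-fold 79 and 58. Other normalizations, the deposited table and the mean over probes gave 241 to 258 higher and 199 to 218 lower. No paired analysis was possible because there is 1 array per genotype. Depth here is signal over background: a difference of Opn5, or one of Opn3 under its scanner error of 0.22, was not detectable on these arrays.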
